A study of Mus musculus with 4 samples.

Results

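Gene-desert regions are stretches of open chromatin that lie far from any protein-coding gene. They were chosen by their distance from genes, among the windows of the authors' count table. Windows of 300 bp were joined into 1 region where the gap was at most 100 bp. The window with the highest summed counts stood for each. Autosomal regions whose window midpoint was more than 500000 bp from the body of every protein-coding gene were kept. This gave 2168 of 110110 regions, in 217 gene deserts. A desert is named here by the protein-coding genes on either side, and its regions are neighbours, not independent samples. ATAC-seq, which reads open chromatin from where a transposase can reach the DNA, was done on fibroblastic reticular cells, the fibroblasts that build the scaffold of lymph nodes. The cells came from brachial, axillary and inguinal nodes of female C57BL/6 mice aged 12 weeks and were sorted as BP3hi Pdpn+ CD31- CD45-. The control group carried Notch2 fl/fl without Cre, and its littermates, called Notch2_cKO here, carried Ccl19-Cre with Notch2 fl/fl, so all mice had the floxed alleles. Deletion is thus limited to cells with Ccl19-Cre activity now or earlier. Each group had 2 libraries, each from 50000 sorted cells pooled from 6 mice.

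Gene deserts are a regular feature of mammalian genomes. Some flank developmental regulators and hold enhancers that act over long distances, so that a region there may serve a gene far away. Others are gene-poor chromatin that replicates late and contacts the nuclear lamina. Notch2 is a receptor whose cleaved intracellular part joins the DNA-binding protein Rbpj at enhancers and promoters.

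Counts summed over the best windows ranged from 12340742 (Notch2_cKO 2) to 30260067 (Notch2_cKO 1). Control 2 went against its label of female mice: it held 221 counts at Ddx3y, 201 at Eif2s3y, 139 at Uty and 65 at Kdm5d, all Y-linked, where the other libraries held at most 1. The main counts are therefore also given without it. The region at the start of Notch2 did not differ (adjusted p = 0.341 by edgeR, log2 change -0.14, SE 0.10), and the labels do not place the loxP sites, so this does not check the deletion. Among reticular cell markers 10 of 12 genes had an accessible region at a gene end, with summed levels of 229.1 and 239.1 CPM in control and 242.5 and 234.1 in Notch2_cKO; Pdgfra and Ccl19 had none in the table. Endothelial markers had such a region at 3 of 8 genes (36 and 34.1 CPM in control, 43.1 and 44.0 in Notch2_cKO) and leukocyte markers at 2 of 8 (23.4 and 22.8, then 26.7 and 22.6). Those with a region were Tek, Kdr and Prox1 among endothelial markers and Spi1 and Coro1a among leukocyte markers. Their median levels were 11.4 CPM (endothelial) and 11.9 CPM (leukocyte), against 18.1 CPM for reticular markers. The other genes of both lists, such as Pecam1, Cdh5, Ptprc and Cd3e, had none. As Pdgfra and Ccl19 had none either, the lack of such a region does not show that a cell type was absent. Of the marker regions 2 were called: Tek, an endothelial receptor gene, rose from 15.7 and 14 to 23.7 and 26.3 CPM (adjusted p = 0.000313 by edgeR, log2 change 0.74), and Lum, a fibroblast proteoglycan gene, from 0.772 and 1.09 to 2.47 and 1.77 CPM (adjusted p = 0.0038, log2 change 1.24). The part of other cells in the results was not tested.

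Of the 2168 desert regions, 287 had their midpoint inside a listed gene that is not protein-coding, 227 of them in long non-coding RNAs. The antigen receptor loci Igh, Igk and Tcra held 48, because their variable segments are not listed as protein-coding. Only 13 regions were more than 500000 bp from a listed gene of any type. At 10 regions the best window overlapped a RefSeq promoter (GRCm38.p6; 250 bases before to 50 after the start), in every case that of a long non-coding RNA. Sequence could be read only at these regions, and only as the 300 bases of the promoter. A promoter can reach beyond its region: that of Gm31378 runs to 38122518, but the region ends at 38122300. The promoters of the 3 that changed and of the 1 with the highest level are printed 5′ to 3′, with capitals at matches, on either strand, to the letters of AP-1 (TGANTCA), RBPJ (TGGGAA), TEAD (GGAATG), RUNX (TGTGGT), NF-kappaB (by name only), an NFI half-site (TTGGCN) and the CTCF core (AGGGGGC).
Gm32173 (chr4:31323843-31324142, plus strand): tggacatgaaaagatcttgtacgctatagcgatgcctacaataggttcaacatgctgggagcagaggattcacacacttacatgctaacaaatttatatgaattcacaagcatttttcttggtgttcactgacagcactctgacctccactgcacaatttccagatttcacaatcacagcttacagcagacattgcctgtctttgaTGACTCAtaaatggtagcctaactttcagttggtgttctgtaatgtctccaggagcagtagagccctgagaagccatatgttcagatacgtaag
Gm31378 (chr10:38122219-38122518, minus strand): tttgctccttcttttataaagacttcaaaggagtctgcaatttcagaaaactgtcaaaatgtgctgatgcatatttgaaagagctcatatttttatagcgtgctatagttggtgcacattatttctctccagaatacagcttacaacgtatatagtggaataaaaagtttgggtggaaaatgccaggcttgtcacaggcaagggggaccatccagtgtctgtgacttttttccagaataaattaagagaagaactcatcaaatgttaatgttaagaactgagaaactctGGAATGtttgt
6030442E23Rik (chr7:71216799-71217098, plus strand): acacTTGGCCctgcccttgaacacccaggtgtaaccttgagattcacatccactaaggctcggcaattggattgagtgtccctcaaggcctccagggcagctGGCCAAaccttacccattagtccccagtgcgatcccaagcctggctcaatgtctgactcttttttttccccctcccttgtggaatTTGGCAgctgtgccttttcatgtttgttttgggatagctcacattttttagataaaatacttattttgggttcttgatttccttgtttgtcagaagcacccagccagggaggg
Gm14064 (chr2:137663143-137663442, plus strand): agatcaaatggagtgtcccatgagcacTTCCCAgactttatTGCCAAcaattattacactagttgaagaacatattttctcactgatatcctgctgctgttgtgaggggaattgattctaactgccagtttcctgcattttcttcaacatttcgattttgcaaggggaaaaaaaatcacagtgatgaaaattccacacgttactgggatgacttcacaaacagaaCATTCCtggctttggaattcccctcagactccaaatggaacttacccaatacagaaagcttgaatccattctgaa

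The capitals mark an AP-1 match in Gm32173, a TEAD match in Gm31378, 3 NFI half-site matches in 6030442E23Rik, and an RBPJ, an NFI half-site and a TEAD match in Gm14064. None of the matches printed overlap each other. Of all 32851 promoters of 300 bases, 7.81% held the AP-1 letters, 25.6% RBPJ, 14.7% TEAD, 16.8% RUNX, 5.55% NF-kappaB, 46.6% the NFI half-site and 10.6% the CTCF core. Among the 10 desert promoters the counts were 2 for AP-1, 2 for RBPJ, 4 for TEAD, 2 for RUNX and 3 for the NFI half-site. Neither the NF-kappaB nor the CTCF letters occurred in these promoters. The GC content of the 10 promoters ran from 29.3% to 56.0%, against a median of 52.7% over all promoters. A match to such short letters is a description of the sequence, not evidence of binding.

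Levels below are CPM adjusted with loess offsets that follow abundance. They are given for library 1, then library 2 of a group, or as mean ± SD with n = 2. A log2 change above 0 means higher in Notch2_cKO than in control. Its standard error (SE) comes from edgeR's quasi-likelihood test, and a region is called at a Benjamini-Hochberg adjusted p under 0.05 over all 110110 regions. The p-values rest on the spread between 2 pools a group, which edgeR draws at each region toward a trend fitted over all regions. In such bulk samples fewer cells with an open region and less opening per cell cannot be told apart, and the flanking genes that name a desert need not be the ones its regions serve.

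The region at the Gm32173 promoter, between Epha7 and Map3k7, held 30 and 28 counts in control and 63 and 28 in Notch2_cKO. In normalized CPM it stood at 1.29 and 1.13 against 2.07 and 2.16, a rise with non-overlapping groups (adjusted p = 0.0324 by edgeR, log2 change 0.80, SE 0.26). The call was lost when any single library was left out (edgeR adjusted p from 0.0569 to 0.189). By DESeq2 none of the 3 changed promoter regions was called, with adjusted p of 0.261 here, 0.0592 at 6030442E23Rik and 0.207 at Gm31378. The region at 6030442E23Rik, between Gm44812 and Mctp2, fell from 4.76 and 5.27 to 2.72 and 2.78 CPM (adjusted p = 0.00267 by edgeR, log2 change -0.87, SE 0.20). At Gm31378, between Marcks and Rfpl4b, levels of 2.01 and 1.90 CPM in control fell to 1.09 and 0.848 (adjusted p = 0.0178 by edgeR, log2 change -0.95, SE 0.28), but not without control 1 (0.0894) or control 2 (0.0618). Gm14064, between the Notch ligand gene Jag1 and Btbd3, was the most accessible of these promoters. It stood at 37.9 and 40.7 CPM in control and 39.2 and 48.5 in Notch2_cKO, overlapping groups that did not pass the test (adjusted p = 0.384 by edgeR, log2 change 0.15, SE 0.11). In the same desert, the region from 137684151 to 137684750 rose from 21.1 and 21.1 to 27.3 and 37.6 CPM (adjusted p = 0.0031 by edgeR, log2 change 0.60, SE 0.14).

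Desert regions were lower in Notch2_cKO more often than they were higher. Of the 2168, 463 were lower (21.4%), 192 were higher (8.86%) and the others did not pass. Over all regions tested 11.2% were lower and 12.5% higher, so the share of lower calls stood above the background and that of higher calls below it. In either direction 655 desert regions were called (30.2%, against 23.7% of all regions). At least 2-fold changes made up 222 of the lower calls (10.2%, against 4.37% of all regions) and 93 of the higher calls (4.29%, against 5.54%).

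The median log2 change was -0.26 in desert regions, with quartiles of -0.67 and 0.14, against 0.01 over all regions. A change below 0 was found in 1470 desert regions (67.8%, against 49.2% of all). Both Notch2_cKO libraries lay below both controls in 998 desert regions (46.0%, background 29.5%) and above both in 407 (18.8%, background 30.4%). The lower calls depended on single libraries: there were 295 without Notch2_cKO 1 (13.6%, against 8.68% of all regions) and 293 without control 1 (13.5%, against 7.26%). Without control 2, the library with Y-linked counts, 353 were lower (16.3%, against 7.47%) and 133 higher (6.13%, against 8.12%).

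**Figure D1:**
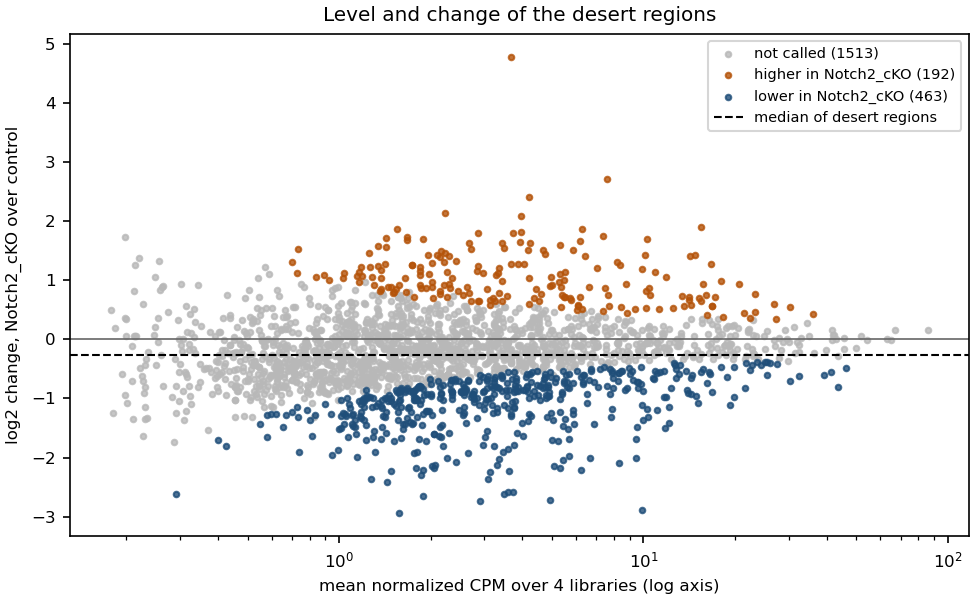
Each point is a desert region (2168 in all), with its mean normalized CPM over 4 libraries on a log axis and its log2 change, Notch2_cKO over control, on the vertical axis. Blue points mark the 463 lower and orange points the 192 higher regions, and the dashed line the median of -0.26.

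The libraries did not contribute evenly. Relative to the mean of the 4 libraries, the median desert region stood at 0.16 on the log2 scale in control 1, 0.09 in control 2, -0.02 in Notch2_cKO 2 and -0.19 in Notch2_cKO 1. Both controls were thus above both Notch2_cKO libraries, yet Notch2_cKO 2 was nearer to control 2 than to Notch2_cKO 1. With 2 libraries against 2 the exact two-sided permutation p was 0.333, the smallest this design allows. With library totals in place of loess offsets the medians were 0.15, 0.04, -0.20 and 0.05, and the groups overlapped (exact permutation p = 0.667). Desert regions held 1.02% and 0.976% of the region counts in the controls, 0.877% in Notch2_cKO 1 and 1.00% in Notch2_cKO 2, again with overlap (exact two-sided permutation p = 0.667).

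The share of lower calls rose with distance from genes beyond 10000 bp, while the share of higher calls did not change steadily. Inside protein-coding genes 10.5% of 52662 regions were lower and 12.6% higher, with a median log2 change of 0.02. Outside genes, up to 10000 bp away, 7.56% were lower and 9.99% higher. At 10000 to 100000 bp 11.9% were lower and 14% higher. The lower share was 15.4% at 100000 to 250000 bp and 17.0% at 250000 to 500000 bp. It was 21.3% for the 1667 desert regions up to 1000000 bp from a gene and 21.6% for the 501 beyond that. The higher share was 15.9% at 100000 to 250000 bp, 13.2% in the next class, and 9.48% and 6.79% in the desert classes. Median log2 changes over those 4 classes were -0.05, -0.12, -0.25 and -0.28. In lower share and median log2 change, desert regions thus sat at the end of a gradient. It was already present among regions 100000 bp or more from a gene, and no test of the gradient itself was made.

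**Figure D2:**
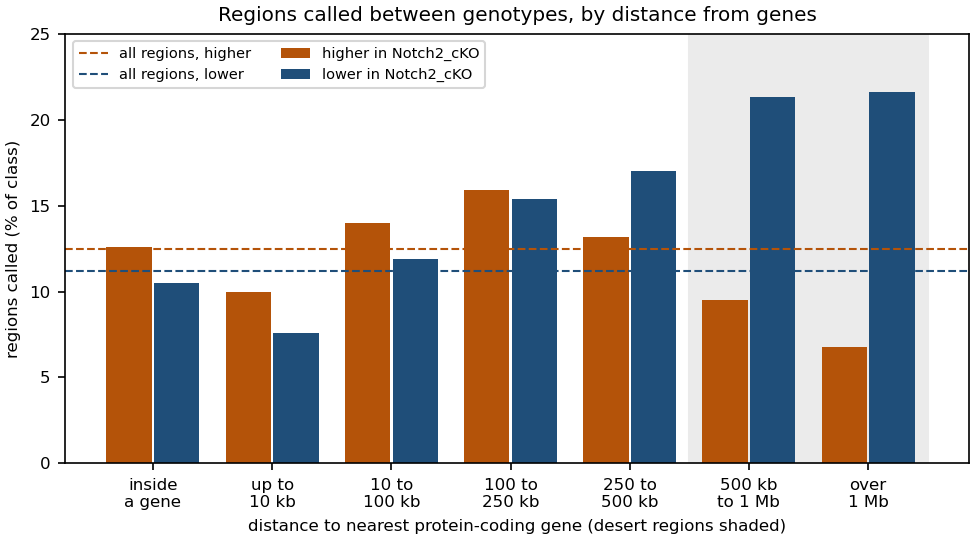
Bars give the percent of autosomal regions called higher (orange) or lower (blue) in Notch2_cKO for 7 classes of distance to the nearest protein-coding gene. Dashed lines show all regions (12.5% and 11.2%), and desert regions, shaded, have the highest lower shares, 21.3% and 21.6%.

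**Figure D3:**
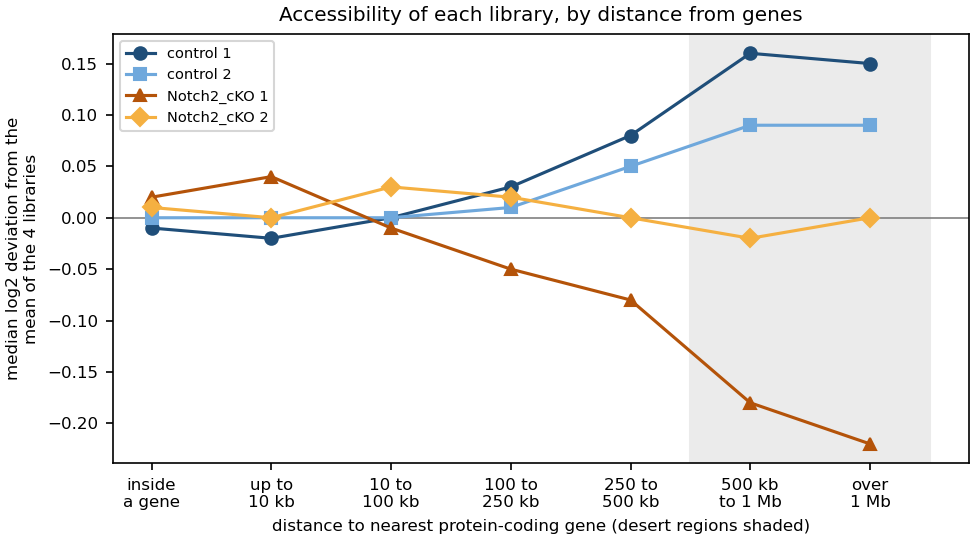
Lines give, for each of the 4 libraries, the median log2 deviation of a region from the mean of the libraries, by the same distance classes. All libraries lie within 0.04 of 0 up to 10000 bp, and in the desert classes the controls reach 0.16 and Notch2_cKO 1 falls to -0.22 while Notch2_cKO 2 stays near 0.

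Desert regions were also less accessible than others, so the comparison was repeated at like levels. Their median level was 2.05 CPM against 3.43 over all regions, and 11% exceeded 10 CPM against 22.4%. The median desert region held 52, 54, 54 and 25 counts (control 1 and 2, Notch2_cKO 1 and 2), which limits small changes. Autosomal regions were split by mean level into 4 classes of equal size. In the lowest class 11.4% of 903 desert regions were lower against 7.64% of regions inside genes, and median log2 changes were -0.36 and 0.07. In the second class the lower shares were 27.8% and 12.4%, and in the third 30.5% and 13.4%. Among the 276 desert regions of the top class, above 8.84 CPM, 26.4% were lower against 8.37% inside genes, with medians of -0.12 and 0.01. Higher calls in that class made up 14.5% of desert regions and 10.9% of those inside genes, so there both shares stood above those inside genes. Its median desert region stood at 0.11 and 0.02 in controls 1 and 2, relative to the mean of the libraries on the log2 scale. In Notch2_cKO 1 and 2 it stood at -0.16 and 0.06, so the groups overlapped in the top class. In the lower classes both controls stood above both Notch2_cKO libraries.

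The desert regions that rose with the smallest p were spread over 9 deserts. The region from 9285851 to 9286450 on chromosome 2, 570928 bp from Gata3, which encodes a zinc finger transcription factor, held 7 and 5 counts in control and 215 and 94 in Notch2_cKO. Its level rose from 0.255 ± 0.0798 to 7.11 ± 0.211 CPM (adjusted p = 4.06e-09 by edgeR, log2 change 4.78, SE 0.29). It was nearly closed in both controls and open in both Notch2_cKO libraries. Between Ripk2, a kinase of NOD receptor signalling, and Mmp16, a membrane-bound metalloproteinase, the region from 16739651 on chromosome 4 rose from 2.09 and 1.89 to 12.0 and 14.3 CPM (adjusted p = 1.91e-08 by edgeR, log2 change 2.71, SE 0.19).

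A region between Bod1l and Gm46911 on chromosome 5 rose from 1.38 and 1.23 to 6.31 and 7.88 CPM (adjusted p = 3.23e-07 by edgeR, log2 change 2.41, SE 0.22). The desert between Gm33989 and Vstm2b on chromosome 7 held 2 of these 10 regions: the region from 40258201 rose from 6.56 and 6.56 to 26.2 and 22.4 CPM, and that from 40103401 from 5.36 and 5.64 to 14.7 and 14.9. Between Nr5a2 and Ptprc, the CD45 gene, a region 588909 bp from Ptprc rose from 5.28 and 4.38 to 14.6 and 16.7 CPM (adjusted p = 5.82e-07 by edgeR, log2 change 1.69, SE 0.16). Ptprc itself had no region at its ends in the table. The other 4 lay between Pcdh20 and Pcdh9 (2 protocadherin genes), Dhx35 and Gm826, Nmbr and Cited2, and Ccer1 and Atp2b1, with log2 changes from 1.41 to 2.09.

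Among those that fell, the smallest p was found between Slc10a2, a bile acid transporter, and Efnb2, a membrane-bound ephrin ligand. There the region from 6006301 to 6006950 on chromosome 8 held 412 and 419 counts in control and 67 and 35 in Notch2_cKO. It fell from 18.3 and 16.5 to 2.16 and 2.73 CPM (adjusted p = 6.27e-09 by edgeR, log2 change -2.88, SE 0.18). It lay 901313 bp from Slc10a2 and 2610635 bp from Efnb2, so neither gene is close.

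The region from 80382151 to 80382750 on chromosome 13 lay between Nr2f1, a nuclear receptor of development, and Arrdc3, only 500934 bp from the latter. It fell from 14.2 and 12.7 to 3.01 and 3.43 CPM (adjusted p = 1.24e-07 by edgeR, log2 change -2.09, SE 0.17). In the desert of Id2, an inhibitor of helix-loop-helix transcription factors, a region on chromosome 12 fell from 6.48 and 5.52 to 1.04 and 0.849 CPM (adjusted p = 2.96e-07 by edgeR, log2 change -2.61, SE 0.24). It lay 629908 bp from Id2 and 580794 bp from Rnf144a, and its groups did not overlap.

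Between Pcdh7, a protocadherin gene, and G6pd2 a region on chromosome 5 fell from 8.68 and 8.27 to 1.16 and 1.55 CPM (log2 -2.71, SE 0.21). Between the ephrin receptor gene Epha7 and Map3k7, which encodes the kinase TAK1, the region from 31203151 fell from 15.5 and 14.3 to 3.00 and 4.92 CPM (log2 -2.01, SE 0.19). The other 4 lay between Gm4868 and Tmem132c, Zeb2 and Acvr2a, D3Ertd751e and Pcdh10, and Dsel and Cntnap5a, with log2 changes from -2.73 to -2.05. In each of the 10 higher and 9 lower regions named here both Notch2_cKO libraries lay beyond both controls, which the rule for naming them required. Each stayed called in every alternative with all libraries in which it was tested. As they were picked for the smallest p in these same libraries, this is not an independent check.

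**Figure D4:**
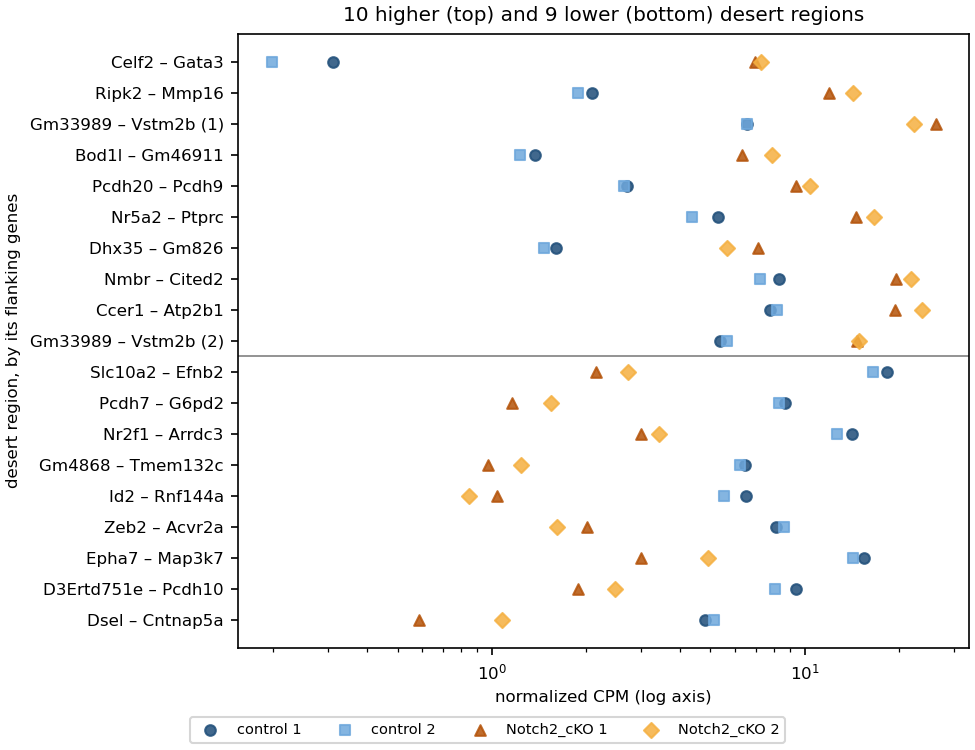
Normalized CPM on a log axis in each of the 4 libraries for 10 higher (top) and 9 lower (bottom) desert regions among those of smallest p, named by their flanking genes. The widest separation is between Celf2 and Gata3, from 0.255 CPM in control to 7.11 CPM in Notch2_cKO on average.

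The 5 most accessible desert regions did not pass the test, although 26.4% of the top level class were called lower and 14.5% higher. The strongest, from 103493101 to 103493750 on chromosome 8, lay between Cdh11, a cadherin of mesenchymal cells, and Cdh5, the endothelial VE-cadherin. It stood at 81.1 and 81.3 CPM in control and 83.4 and 98.2 in Notch2_cKO (adjusted p = 0.236 by edgeR, log2 change 0.16, SE 0.09). The others of the top 5 lay between Grin3a and Cylc2 (mean 67.0 CPM), Celf4 and Pik3c3 (64.9), Pcdh20 and Pcdh9 (63.3), and Epha7 and Map3k7 (54.3), with log2 changes from -0.02 to 0.15. In all of these 5, Notch2_cKO 2 was the highest library. Without Notch2_cKO 1, those beside Cdh11 (log2 0.27), Grin3a (0.33) and in the Pcdh20 desert (0.30) were called higher. Without Notch2_cKO 2 the region in the Pcdh20 desert was called lower instead (log2 -0.31), so its direction rests on single libraries.

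Farthest from genes were regions in the deserts between Celf4 and Pik3c3 on chromosome 18 and between Pcdh20 and Pcdh9 on chromosome 14. The region 2223315 bp from Pik3c3, a lipid kinase of autophagy, fell from 4.84 and 4.72 to 2.20 and 2.16 CPM (adjusted p = 0.000422 by edgeR, log2 change -1.12, SE 0.20). Another, 2208830 bp from the RNA-binding protein gene Celf4, fell from 6.45 and 4.84 to 1.42 and 2.70 CPM (adjusted p = 0.000123 by edgeR, log2 change -1.59, SE 0.25). The third, 2220700 bp from Pcdh9, held 11 to 15 counts in every library, too few for a small change to be seen (log2 0.23, SE 0.43). At the limit itself, the regions just inside lay 500247 bp from Sqor (mean 1.43 CPM) and 500295 bp from Nova1 (8.28 CPM), and those just outside 499976 bp from Adam34l (4.49 CPM) and 499932 bp from Sox11 (5.22 CPM).

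The lower calls were spread over many deserts. Of 217 deserts, 78 had lower calls and no higher ones, 26 had higher calls and no lower ones, 61 had both and 52 had none. Among the 80 deserts with at least 10 regions, 69 had a median log2 change below 0, and lower calls outnumbered higher ones in 53 against 15. The median was below 0 on 18 of 19 autosomes, running from -0.51 on chromosome 6 to 0.20 on chromosome 19, which had only 19 desert regions. On chromosome 2 the calls were nearly even, with 31 higher and 29 lower of 199 (15.6% and 14.6%, against 12.5% and 11.2% of all regions).

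Deserts differed in direction, and over all regions tested 12.5% were higher and 11.2% lower. The desert with most regions lay between Zeb2, a transcriptional repressor, and the activin receptor gene Acvr2a on chromosome 2. It went against the majority: 14 of its 81 regions were higher (17.3%) and 5 lower (6.17%), with a median log2 of 0.15. Summed over its regions the level was 289.1 and 298.2 CPM in control and 307.4 and 345.6 in Notch2_cKO, so the groups did not overlap. Its median was 0.07 without Notch2_cKO 2. Between Nmbr and the coactivator gene Cited2, 4 of 48 were higher (8.33%) and 5 lower (10.4%), with a median of -0.25. Both shares lay below those of all regions. The summed levels there, 326.4 and 280.7 against 286.0 and 357.1 CPM, overlapped. The median there was -0.06 without control 1 and -0.08 without Notch2_cKO 1.

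The other 4 of the 6 deserts with most regions were lower. Between Dsel and Cntnap5a on chromosome 1, 20 of 46 regions were lower (43.5%, against 11.2% of all regions). Another 2 were higher (4.35%, against 12.5%), and the median log2 was -0.54. Summed levels there were 212.8 and 216.3 CPM in control and 150.8 and 171.4 in Notch2_cKO. Between Epha7 and Map3k7, 16 of 40 were lower (40%) and 2 higher (5%), with a median of -0.52. The sums there went from 258.0 and 256.8 to 187.2 and 221.6 CPM. The desert between Gm44812 and Mctp2 had 15 lower (39.5%) and 3 higher (7.89%) of 38, with a median of -0.39. That between Nudt12 and Efna5, an ephrin ligand gene, had 12 lower (31.6%) and 1 higher (2.63%) of 38. Its median was -0.41, but -0.26 without control 1 and -0.25 without Notch2_cKO 1. In both of these last deserts the controls summed higher than the Notch2_cKO libraries.

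Among deserts of at least 10 regions the lowest median was found between Cadm2, a synaptic adhesion gene, and Speer2 (log2 -0.86, 7 of 12 or 58.3% lower). Next were Auts2 to Castor2 (-0.85, 8 of 11 or 72.7% lower) and Nxph1 to Ndufa4 (-0.75, 4 of 12 or 33.3% lower). The median of Nxph1 to Ndufa4 was -0.46 without control 1. Over all regions 11.2% were lower and 12.5% higher. The sum at Cadm2 was 48.3 and 48.8 CPM in control and 22.4 and 37.2 in Notch2_cKO. The highest median was that between Gfra2, a receptor for neurturin, and Gm9195 (0.51, 4 of 13 or 30.8% higher). It was followed by Gm33989 to Vstm2b (0.36, 6 of 15 or 40% higher) and by Zeb2 to Acvr2a. The median for Gfra2 to Gm9195 was 0.31 without control 2 and 0.69 without Notch2_cKO 1. At Vstm2b the sum rose from 59.2 and 58.4 to 98.8 and 96.5 CPM.

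**Figure D5:**
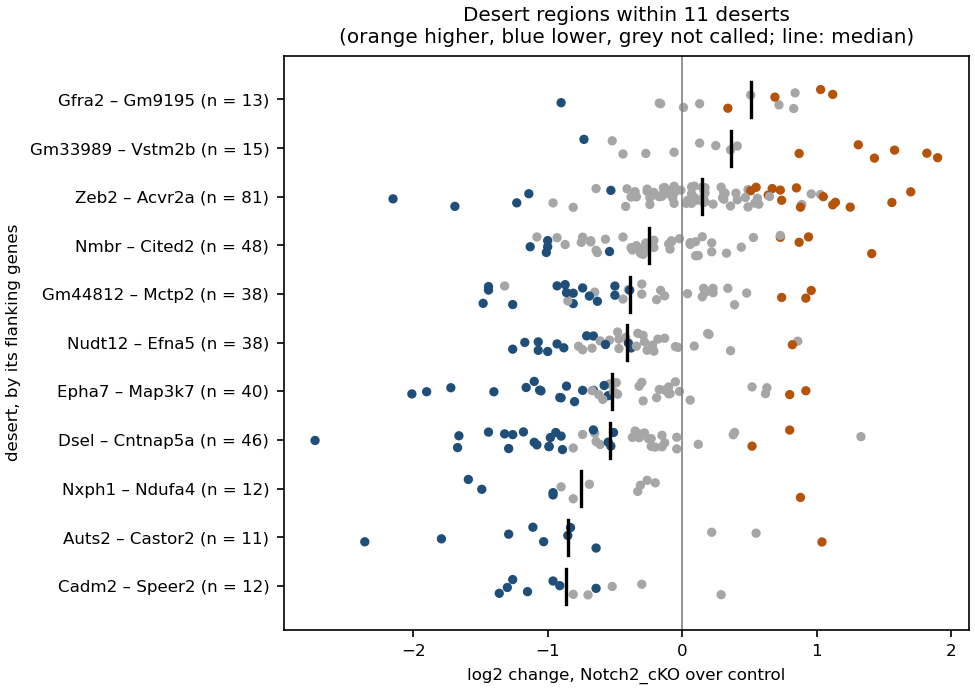
Each point is a desert region within the 6 deserts with most regions and the 3 deserts each of highest and lowest median (11 in all), with its log2 change on the horizontal axis and the median as a line. Medians run from -0.86 between Cadm2 and Speer2 to 0.51 between Gfra2 and Gm9195, and most deserts hold points on both sides of 0.

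Called neighbours within a desert were compared in direction. Of 490 pairs of successive called regions, a median of 60375 bp apart, 358 had the same direction (73.1%) and 132 opposite directions. Since lower calls outnumbered higher ones by 463 to 192, many pairs would share a direction in any case, and the share was not tested. Of the 75 pairs less than 10000 bp apart, 68 had the same direction and 7 did not. The closest opposite pair, chosen after its values were seen, lay 1900 bp apart between Manea and Epha7. There the region from 28299651 fell from 6.59 and 6.21 to 3.14 and 3.55 CPM (log2 -0.96, SE 0.18), and that from 28301601 rose from 7.01 and 5.40 to 8.83 and 9.49 CPM (adjusted p = 0.0219 by edgeR, log2 change 0.56, SE 0.17). The rise was not called without control 2 (edgeR adjusted p = 0.344). Between Slc4a3 and Epha4, regions 4100 bp apart fell from 5.69 and 4.12 to 2.52 and 2.93 CPM and rose from 2.31 and 2.50 to 3.73 and 4.86 CPM. Neither of this second pair was called without control 1 (edgeR adjusted p = 0.107 and 0.0607), nor was the fall without Notch2_cKO 1 (0.0537). DESeq2 called neither of the 2 rises nor the second fall (adjusted p from 0.0723 to 0.0816).

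Deserts were also grouped by the kind of gene on either side, and a desert can count for more than 1 list. The lists go by symbol family, so that Lmo7, for example, counts among the transcription factors. Beside 25 developmental transcription factor genes, such as Zeb2, Gata3, Nr2f1 and Sox11, lay 267 regions, of which 34 were higher (12.7%) and 42 lower (15.7%), with a median log2 change of -0.09. Over all regions 12.5% were higher and 11.2% lower, so the higher share here was close to the background. The Zeb2 desert holds 81 of these. Beside genes of adhesion and synaptic membrane proteins lay 721 regions in 52 deserts, of which 47 were higher (6.52%) and 158 lower (21.9%), with a median of -0.30. A list of signalling families held 6 genes (Edil3, Fgf9, Igfbp3, Igfbp7, Jag1 and Nrg3) and left out receptors such as Acvr2a and Gfra2. Beside its 6 genes lay 52 regions, 4 higher (7.69%) and 11 lower (21.2%), with a median of -0.22. Of these, a region 508646 bp from Fgf9, a fibroblast growth factor gene, and 511535 bp from 1700129C05Rik fell from 2.53 and 2.10 to 0.660 and 0.771 CPM (adjusted p = 0.000268 by edgeR, log2 change -1.72, SE 0.30). A region 660415 bp from Nrg3, a neuregulin gene, held 41 and 37 counts in control and 17 and 8 in Notch2_cKO (adjusted p = 0.00255 by edgeR, 0.0752 by DESeq2, log2 change -1.47, SE 0.33). The 1136 regions beside none of the lists had 107 higher (9.42%) and 253 lower calls (22.3%) and a median of -0.28. Of all desert regions 8.86% were higher and 21.4% lower. Apart from that beside transcription factor genes, the lower shares were thus close to the share of all desert regions. Differences between the lists were not tested.

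Of the 227 desert regions within long non-coding RNA genes, 24 were higher (10.6%) and 43 lower (18.9%), with a median log2 change of -0.18. The 1881 regions in no listed gene had 167 higher and 412 lower calls (8.88% and 21.9%) and a median of -0.26. Within Igh, Igk and Tcra 8 of 48 regions were lower by edgeR (16.7%), against 21.4% of desert regions and 11.2% of all regions. DESeq2 called 1 of the 48 lower and limma 7. Higher calls numbered 0 by edgeR, DESeq2 or limma, against 12.5% of all regions by edgeR, and 1 region was higher at an unadjusted edgeR p under 0.05. These loci had a median level of 0.657 CPM and a median log2 change of -0.45. With them left out, a choice made after seeing the data, 455 of 2120 desert regions were lower and 192 higher.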

How the data were processed

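ATAC-seq counts of 4 libraries were used. The submitters' processing notes name build mm10, Bowtie2 2.4.5, Picard 2.27.5, SAMtools 1.14, deepTools, cutadapt and Trim Galore 0.6.7. How windows were selected, and whether reads were shifted for the transposase, was not given in the sources used here. Whole-number counts for 678058 windows, in steps of 50 bp, were deposited. Although described as loess-normalized in the labels, they give unequal library totals, so the authors' counts were treated as not normalized.

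Distances came from a RefSeq table of GRCm38.p6 (21900 protein-coding genes), which may lack genes. Loess offsets in the manner of csaw and edgeR 4.0.16 quasi-likelihood tests of genotype, without a replicate term, were run on all 110110 regions in R 4.3.3 with limma 3.58.1, and checked on simulated data. DESeq2 1.42.0 and limma-trend (prior count 0.5) were alternatives. Replicate libraries are separate pools; the chi-square per region was 1.96 between controls and 2.77 between Notch2_cKO libraries, so none was counted as 1 library. Figures used matplotlib 3.10.9.

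Named regions were the 10 of smallest p per direction with non-overlapping groups, the 5 of highest level, the 3 farthest, 2 on each side of the limit, up to 3 called per flank list, all at promoters and, after their values were seen, the 2 closest opposite pairs. Of the lower regions of smallest p, 1 is not reported here. Named deserts were the 6 with most regions and the 3 of highest and lowest median among those of at least 10. Members and lists were chosen with earlier results of these data known. No genome sequence was used, so GC content and motifs were read for promoters only.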

Additional observations from a re-analysis of the deposited data

How the results depend on the processing

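The excess of lower over higher calls held in direction under every alternative run, while the counts moved. DESeq2 called 104 higher and 194 lower of 1870 desert regions with an adjusted p (5.56% and 10.4%, against 6.96% and 5.13% of all regions). A 2-fold minimum gave 93 and 222 (4.29% and 10.2%, against 5.54% and 4.37% of all regions). An adjusted p under 0.01 by edgeR gave 117 and 284, for which no share over all regions is given here. By construction other limits changed the regions counted, while over all regions 12.5% were higher and 11.2% lower whichever limit was used. Beyond 250000 bp 708 were higher and 1130 lower of 6090. Beyond 1000000 bp the counts were 34 and 108 of 501 (6.79% and 21.6%), and with 1 region per desert 28 and 52 of 217. Beyond 500000 bp from genes of any type edgeR called 0 higher (0 at an unadjusted p under 0.05 and 0 by DESeq2) and 3 lower (2 by DESeq2) of 13. Other scalings, limma, filters and a wider merge stayed within 1.5 times. Leaving out 1 library leaves a single sample in that group, whose spread is then taken from the other group: higher calls ran from 133 to 181, lower calls from 293 to 566, the median log2 change from -0.34 to -0.19, its difference from regions inside genes (main value -0.28) from -0.37 to -0.19, and deserts of at least 10 regions with a median below 0 from 64 to 75 of 80. The cause was not tested. Reversed was the region from 89610601 between Pcdh20 and Pcdh9, at log2 -0.31 without Notch2_cKO 2 and 0.30 without Notch2_cKO 1.

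With the replicate number as a block 167 desert regions were higher and 429 lower (7.70% and 19.8%, against 11.1% and 9.77% of all regions). Same-numbered libraries deviated with a correlation of -0.136 across regions, and crossing the pairs, added after seeing the data, gave 240 and 552 (11.1% and 25.5%, against 16.5% and 15.3%); the labels give the numbers no shared origin. Notch2_cKO 2, with a median of 25 counts per desert region, limits the smallest changes that can be seen.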

Other observations

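Chromosome X, which the rule for desert regions left out, had 84 regions more than 500000 bp from a protein-coding gene. Of these 14 were lower in Notch2_cKO (16.7%) and 10 higher (11.9%), by the same edgeR fit, against 11.2% and 12.5% of all regions. Their median log2 change was -0.11. The median X-linked desert region stood at 0.02 and 0.09 in controls 1 and 2, relative to the mean of the libraries on the log2 scale. In Notch2_cKO 1 and 2 it stood at -0.11 and 0.05, so the groups overlapped there. Control 2, the library with Y-linked counts, enters all these values. No values without it are given for chromosome X, so a part of that library in them was not tested.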
